A study of Homo sapiens with 2 samples.

Results

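Origin licensing is the loading of the MCM helicase onto DNA before S phase, and the genes of its core machinery were looked up in a genome-wide list of JARID2 peaks from MDA-MB-231 cells. JARID2 is a DNA-binding cofactor of PRC2, the Polycomb complex that methylates histone H3. MDA-MB-231 is an established human triple-negative breast cancer line, and the cells were untreated. The study compared chromatin precipitated with a polyclonal JARID2 antibody (1 library) with input DNA of the same line that was not precipitated (1 library). Only the annotated peak list of the JARID2 library was analysed here, so no value has a replicate and no difference between genes was tested. The 10 genes were taken by name: MCM2, MCM3, MCM4, MCM5, MCM6, MCM7, ORC1, CDC6, CDT1 and GMNN. Of the 67071 listed peaks, 7 were named for 6 of these genes and 0 for MCM2, ORC1, CDT1 or GMNN.

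Licensing works in a fixed order. The origin recognition complex, whose largest subunit is ORC1, binds origin DNA, and the ATPase CDC6 joins it. CDT1 then brings the ring of MCM2 to MCM7, and pairs of these rings are closed around DNA. Geminin, the product of GMNN, binds CDT1 outside G1 and so prevents a second round of loading. Most of these genes are known E2F targets that are transcribed as cells pass from G1 into S phase.

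The regions in front of 8 of these genes were searched for known promoter elements, and 5 of them are printed here, 3 from genes with a peak over the start (CDC6, MCM6 and MCM7) and 2 from genes with no peak under their name (MCM2 and ORC1). Each is the 250 bases before the first start that the RefSeq promoter table gives (GRCh38.p14), 5′ to 3′ in the gene's direction. The peaks are on hg19 and were not placed on these windows. Capitals mark 8-letter E2F words (TTTCCCGC, TTTCGCGC, TTTGCCGC and TTTGGCGC), the CCAAT box and the E-box CACGTG, searched on both strands, and no base belonged to 2 kinds of motif. Runs of 12 capitals are 2 E2F words, 1 on each strand, that overlap.
CDC6 (chr17:40287629-40287878, plus strand): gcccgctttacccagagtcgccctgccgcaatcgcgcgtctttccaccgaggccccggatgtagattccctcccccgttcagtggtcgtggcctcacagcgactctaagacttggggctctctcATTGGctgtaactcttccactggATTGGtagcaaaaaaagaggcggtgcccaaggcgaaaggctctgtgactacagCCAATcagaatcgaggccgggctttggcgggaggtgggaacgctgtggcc
MCM6 (chr2:135876444-135876693, minus strand): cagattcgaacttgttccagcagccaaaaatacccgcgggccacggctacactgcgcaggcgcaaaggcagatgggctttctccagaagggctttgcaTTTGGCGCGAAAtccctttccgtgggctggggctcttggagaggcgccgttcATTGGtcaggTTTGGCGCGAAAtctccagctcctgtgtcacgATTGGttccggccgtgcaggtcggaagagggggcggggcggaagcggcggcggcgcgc
MCM7 (chr7:100101398-100101647, minus strand): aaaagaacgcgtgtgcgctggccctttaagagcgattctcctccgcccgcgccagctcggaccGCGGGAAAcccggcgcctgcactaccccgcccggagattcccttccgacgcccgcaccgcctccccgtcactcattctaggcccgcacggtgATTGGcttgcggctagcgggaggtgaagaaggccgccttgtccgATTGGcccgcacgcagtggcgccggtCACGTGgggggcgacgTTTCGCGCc
MCM2 (chr3:127598161-127598410, plus strand): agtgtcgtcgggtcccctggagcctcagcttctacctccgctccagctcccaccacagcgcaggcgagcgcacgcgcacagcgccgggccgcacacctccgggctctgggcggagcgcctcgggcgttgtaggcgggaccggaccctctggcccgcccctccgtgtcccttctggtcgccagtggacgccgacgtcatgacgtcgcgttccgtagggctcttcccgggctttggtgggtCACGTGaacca
ORC1 (chr1:52404424-52404673, minus strand): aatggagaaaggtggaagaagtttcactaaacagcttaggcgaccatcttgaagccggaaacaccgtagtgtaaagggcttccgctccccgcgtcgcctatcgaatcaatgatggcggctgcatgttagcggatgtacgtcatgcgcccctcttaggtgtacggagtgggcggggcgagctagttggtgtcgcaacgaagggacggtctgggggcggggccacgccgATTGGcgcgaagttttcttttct

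E2F words were found both in promoters with a peak over the start and in promoters without one. Such a word stood in 4 of the 8 licensing promoters that the table holds, against 3.72% of 15843 protein-coding promoters of the same length. The 4 were MCM6 with 2 separate runs, MCM7 with 2, and MCM3 and CDT1 with 1 each. Among the 3 genes with a peak over the start that are in the table, 2 had such a word, and among the other 5 genes 2 had one. Only exact words were counted, so a window without one can still hold a near match. In the printed windows, CDC6 holds TTTGGCGC but for its last letter, and ORC1 holds it but for its first. The MCM7 word nearest to the start began 9 bases before it and the CDT1 word 35 bases before it. CCAAT stood in 5 of the 8 windows (3 copies in CDC6 and in MCM3, 2 in MCM6 and in MCM7, 1 in ORC1), against 34.5% of promoters, and CACGTG stood in MCM2 and MCM7, against 7.84%. CG dinucleotides numbered 42 in CDT1, 34 in MCM7, 30 in MCM2, 24 in MCM6, 23 in ORC1 and 17 each in CDC6, MCM3 and GMNN, where the median promoter had 17. CDT1, with the most CG dinucleotides of the 8, had no listed peak, and MCM7, the next, had one over its start. MCM4 and MCM5 were not among the 8, and a link between CG content and peaks was not tested. These matches are letters in a window, not sites of binding.

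Set against all listed peaks, the promoter peaks of the licensing genes were wide and tag-rich, with low fold enrichment except at MCM4. A tag is a mapped read counted in a peak, and fold enrichment is the authors' ratio of the JARID2 signal to a background. Tags per peak ran from 18 to 44 with a median of 31.0, where the median over all peaks was 12. Fold enrichment ran from 3.51 to 13.82 with a median of 4.37, below the 5.95 of all peaks. Widths ran from 781 to 1497 bp, against a median of 510 bp. All 7 peaks were in the authors' promoter class, within 3 kb of a transcription start, and 5 of them overlapped the start itself. Fold enrichment, FDR (false discovery rate) and tags are the authors' values for each peak, the depth of the library is unknown, and intervals on tags cover counting error only.

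**Figure D1:**
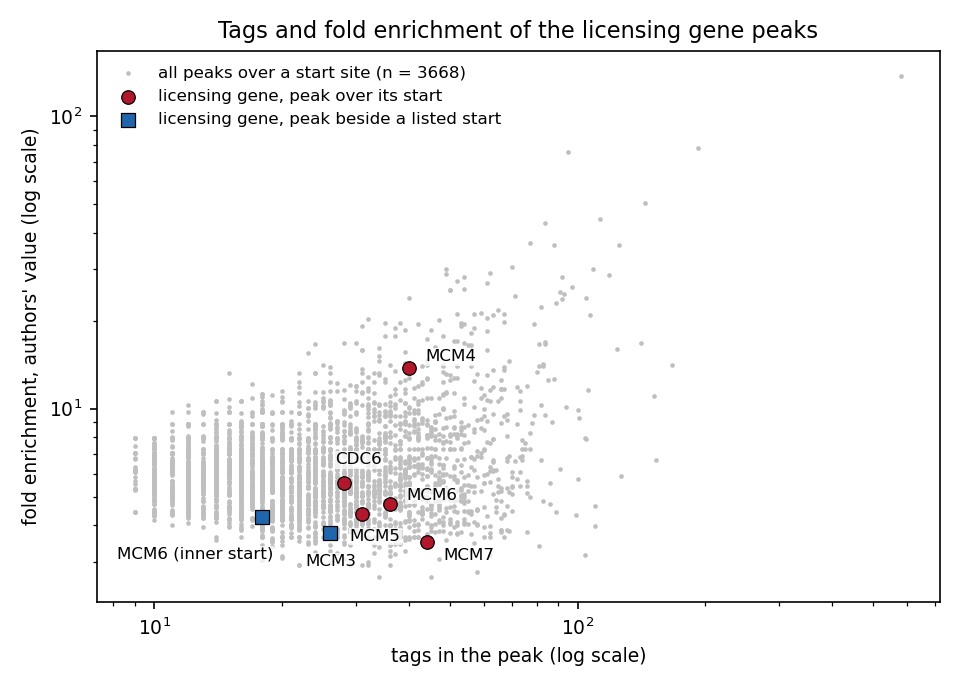
Tags per peak (horizontal, log scale) against the authors' fold enrichment (vertical, log scale) for the 3668 peaks that overlap a start site (grey) and the 7 licensing gene peaks (red circles over a start, blue squares beside one). MCM4 at 13.82 stands above the other 6, which lie between 3.51 and 5.56, below the grey points' median of 5.99.

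Among the helicase subunits, MCM4 had the strongest peak. MCM4 (ENSG00000104738) encodes a subunit of the MCM ring. Its peak on chromosome 8 (48873010 to 48874276, hg19) held 40 tags (95% exact Poisson interval 28.6 to 54.5), with a fold enrichment of 13.82, a −log10 p of 11.45 and an FDR of 1.11%. It was the only licensing peak with an FDR of at most 5%, where 1.24% of all peaks and 12.4% of those over a start reached that limit. The peak spanned 448 bp upstream to 818 bp downstream of the start of ENST00000523944, and its summit lay 46 bp upstream. Of the peaks over a start site, 103 (2.81%) had a fold enrichment at least as large. RefSeq places PRKDC, the gene of the DNA-dependent protein kinase, next to MCM4. Of the 2 peaks given to PRKDC, 0 were promoter peaks (both intronic, fold enrichment 5.66 and 7.95). Each peak carries only the symbol of its nearest transcript, so that count does not show that the PRKDC start lacks a peak. The MCM4 peak was not placed against the PRKDC start.

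MCM7 had more tags than MCM4 and the lowest fold enrichment of the 7 peaks. MCM7 (ENSG00000166508) also encodes a ring subunit, and its peak on chromosome 7 (99697776 to 99699272) held 44 tags (32.0 to 59.1) with a fold enrichment of 3.51. Its FDR was 48.77%, near the 48.96% that is the largest in the list, and its −log10 p of 3.04 was just inside the smallest listed, 3.0. The tag intervals of MCM4 and MCM7 overlap, and tags per kb of peak were 31.6 and 29.4, a ratio of 1.07. The fold enrichments differed 3.94-fold. The MCM7 peak was the widest of the licensing peaks at 1497 bp, and its summit lay 695 bp downstream of the start of ENST00000489841. In the promoter table the nearest starts of MCM7 and of AP4M1, an adaptor complex gene on the other strand, are 40 bp apart. By name AP4M1 was given 0 peaks. A peak carries only the symbol of its nearest transcript, so that 0 does not show that the AP4M1 start lacks a peak. The MCM7 peak overlaps the MCM7 start and was not placed against the AP4M1 start. The microRNA genes MIR25, MIR93 and MIR106B, which are known to lie in an MCM7 intron, had 0 peaks under their names.

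MCM6 had a peak at its outer start and a weaker one inside the gene. The outer peak on chromosome 2 (136633104 to 136634271) held 36 tags (25.2 to 49.8) with a fold enrichment of 4.71 and an FDR of 37.47%, and its summit lay 91 bp upstream of the start of ENST00000264156. The inner peak (136621354 to 136622134) held 18 tags (10.7 to 28.4) with a fold enrichment of 4.26 and an FDR of 41.8%. That peak belongs to a shorter transcript, ENST00000492091, whose start lies 11375 bp inside the longer one, and 10969 bp separate the peaks. The outer peak held 2.0 times the tags of the inner peak, and the Poisson intervals overlap. By fold enrichment the peaks were close, at 4.71 and 4.26.

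MCM5 and MCM3 had peaks of low fold enrichment. MCM5 on chromosome 22 (35795369 to 35796541) held 31 tags (21.1 to 44.0) with a fold enrichment of 4.37 and an FDR of 42.19%, over the start of ENST00000216122, with the summit 225 bp downstream. MCM3 on chromosome 6 (52142882 to 52143877) held 26 tags (17.0 to 38.1) with a fold enrichment of 3.77 and an FDR of 40.93%. The MCM3 peak did not overlap a listed start. It lay downstream of the start of ENST00000476448, with its nearest edge 373 bp away and its summit at 1006 bp. That transcript of 3471 bp is the only MCM3 transcript that the list names. Whether the peak lies near any other MCM3 start or inside a longer transcript was not examined. MCM2, the remaining ring subunit, had no listed peak.

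**Figure D2:**
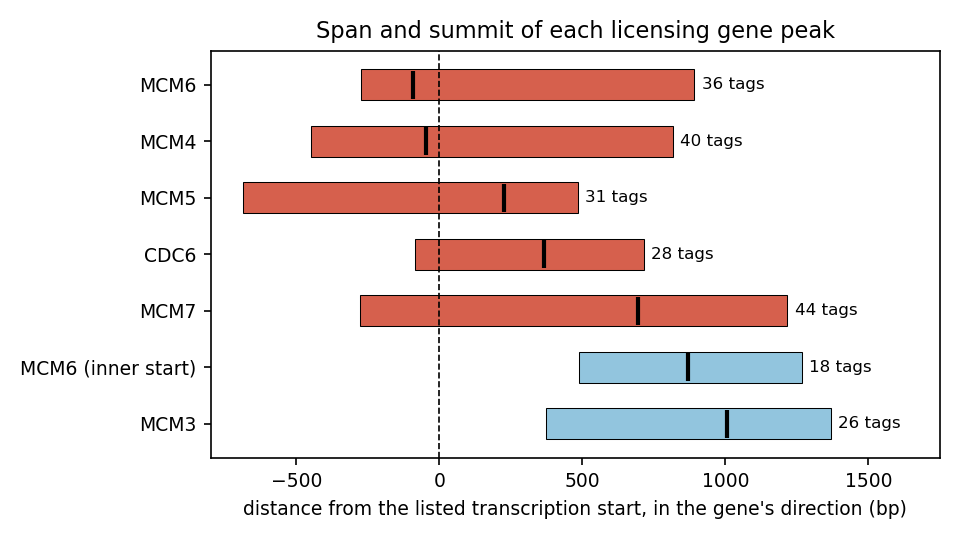
Span (bars) and summit (black ticks) of the 7 peaks by distance from the listed transcription start in the gene's direction (bp), with the tag count at the right. The 5 red peaks cover the start and the 2 blue ones, MCM3 and the inner MCM6 peak, begin 373 and 487 bp downstream of it.

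Summits of the licensing peaks lay on both sides of the start. For the 5 peaks over a start they were at 91 and 46 bp upstream (MCM6 and MCM4) and 225, 366 and 695 bp downstream (MCM5, CDC6 and MCM7). Over all 3668 peaks of this kind the median summit was 24.0 bp downstream and the middle 50% ran from -147 to 183 bp, so MCM6 and MCM4 fell inside that range and MCM5, CDC6 and MCM7 beyond it. The deposited distances of MCM3 and the inner MCM6 peak, 1367 and 1266 bp, are longer than the gaps of 373 and 487 bp. The list measures distance to the far edge of a peak for every gene on the minus strand (30777 peaks) and to the nearest edge for every gene on the plus strand (32626 peaks). MCM3, MCM6 and MCM7 are on the minus strand. By the nearest edge, both peaks would be in the bin within 1 kb of a start rather than that of 1 to 2 kb. Over the list, 758 peaks outside the promoter class have their nearest edge within 3 kb of their listed start.

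Of the loading factors, CDC6 alone had a peak under its name. CDC6 (ENSG00000094804), the ATPase that recruits the ring with CDT1, had a peak on chromosome 17 (38443798 to 38444600) of 28 tags (18.6 to 40.5), with a fold enrichment of 5.56 and an FDR of 36.62%. It had the most tags per kb of the 7 peaks, 34.9, the range of the others being 23 to 31.6. It was also the second highest in fold enrichment after MCM4. No peak was named for ORC1, CDT1 or the inhibitor gene GMNN. The lack of a listed peak does not show that JARID2 is absent.

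The 4 genes without a named peak were placed from the gene order in RefSeq and the peaks of their neighbours. ORC1 starts head to head with PRPF38A, a splicing factor gene, 179 bp apart in the promoter table, and the listed start of PRPF38A (chromosome 1, 52870236) lies in a stretch of 209867 bp with no peak. The median distance between neighbouring peaks was 25705 bp, and 1.40% of the distances were as long as that stretch. Such long stretches together held 16.6% of the bases between peaks. On the other side of that start, 11668 bp away, an intronic peak of 10 tags (52858158 to 52858568, fold enrichment 7.06, FDR 44.28%) carries the name of PRPF38A. The list places it in intron 11 of 16 of a gene that it gives only as ENSG00000085840, an identifier that no table used here pairs with a symbol, so it was not counted for ORC1. It lies on the ORC1 side of the shared start region, and counting it would give 7 of the 10 genes a peak of any class. MCM2 lies between a peak named for TPRA1 (28 tags, fold enrichment 4.84, FDR 33.48%) and one named for ABTB1 (18 tags, 7.95, 27.61%), which are 79291 bp apart. The nearest starts of MCM2 and TPRA1 in the promoter table are 180 bp apart on opposite strands, but the TPRA1 peak belongs to another TPRA1 start. CDT1 lies between peaks named for PIEZO1 and TRAPPC2L, 82694 bp apart, of 12 and 11 tags. GMNN lies between C6orf62 and RIPOR2 (listed as FAM65B). The 1 peak between those genes' own peaks had 19 tags and a fold enrichment of 4.72 and was classed as distal intergenic.

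**Figure D3:**
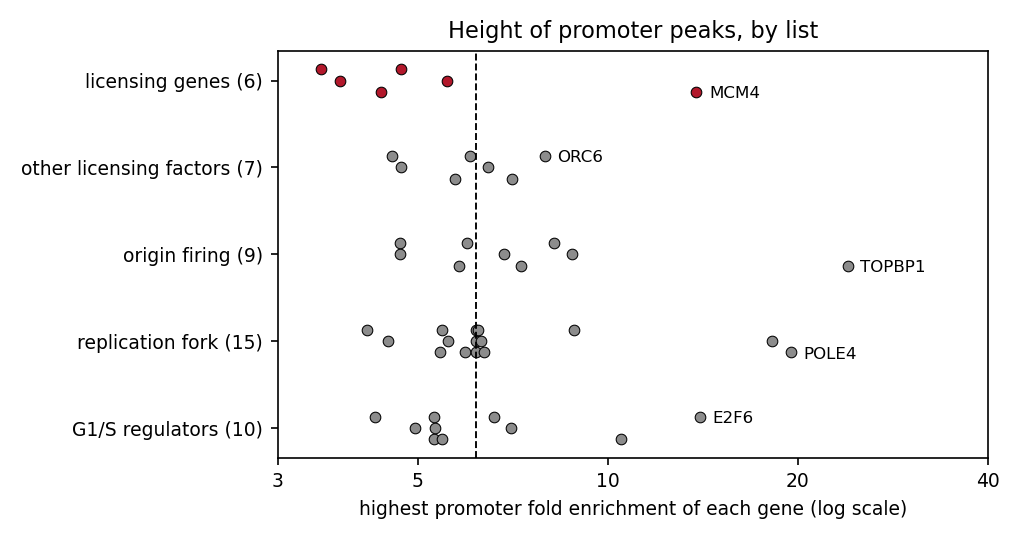
Highest promoter fold enrichment of each gene with a promoter peak (horizontal, log scale), for the licensing genes (red) and 4 lists of other replication and G1/S genes (grey), with the number of genes in brackets and the highest gene named. The dashed line is the median of all protein-coding genes with a promoter peak, 6.18, and 5 of the 6 licensing genes lie left of it, between 3.51 and 5.56.

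Set against other genes, the licensing genes ranked high by tags and low by fold enrichment. Taking each gene's highest promoter peak, the median fold enrichment was 4.54 over the 6 licensing genes and 6.18 over all 6635 protein-coding genes with a promoter peak, while the median of the highest tag count was 33.5 against 17.0. By fold enrichment MCM7 stood at percentile 0.6, MCM3 at 1.7, MCM5 at 6.6, MCM6 at 12.8, CDC6 at 34.0 and MCM4 at 98.3. By tags the same genes stood at 92.9, 75.4, 82.8, 88.2, 78.8 and 91.0. The smallest fold enrichment listed was 3.52 among peaks of 12 tags or fewer and 2.65 among those of 28 to 44 tags. The comparison was repeated within the 808 peaks over a start that held 28 to 44 tags, as the 5 licensing peaks did. Their median fold enrichment was 5.88 and the middle 50% ran from 4.73 to 7.95. CDC6 (5.56) fell inside that range, MCM6 (4.71), MCM5 (4.37) and MCM7 (3.51) below it and MCM4 above it. Of those 808 peaks, 22.0% had an FDR of at most 5%, and of the 5 licensing peaks 1 did.

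By the authors' class, promoter peaks were found at 6 of the 10 licensing genes (60.0%, 95% exact Clopper-Pearson interval 26.2 to 87.8). For MCM3 the class rests on a transcript of 3471 bp, and its peak was not placed against other MCM3 starts. The share with a promoter peak among all 20037 protein-coding genes was 33.1%. A peak over the start was found at 5 licensing genes (interval 18.7 to 81.3), where 13.8% of protein-coding genes had one. Within 1 kb of a start by the nearest edge the count was 6 (interval 26.2 to 87.8), against 24.8%. Within 3 kb by the nearest edge it was 6, against 34.1%. The genes were not a random sample and were chosen with earlier results of these data known. The nearest edge and the overlap with a start were chosen after the data were examined. The intervals therefore describe the counts and test nothing. Counting peaks of any class by their deposited names, the licensing genes again numbered 6, against 56.3%. Under stricter limits MCM4 alone remained. That was 1 of 10 for promoter peaks with an FDR of at most 5% (2.47% of genes), of at most 20% (5.44%), in the top 25% by fold enrichment (11.2%) and with a −log10 p of 5 or more (9.88%). Counting peaks of any class it was again 1 of 10. The shares of all genes were then 3.01% at an FDR of at most 5%, 8.03% at 20%, 25.7% in the top 25% by fold enrichment and 18.3% at a −log10 p of 5 or more. With the intronic peak beside ORC1 counted for that gene, 2 of the 10 would be in the top 25% by fold enrichment.

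**Figure D4:**
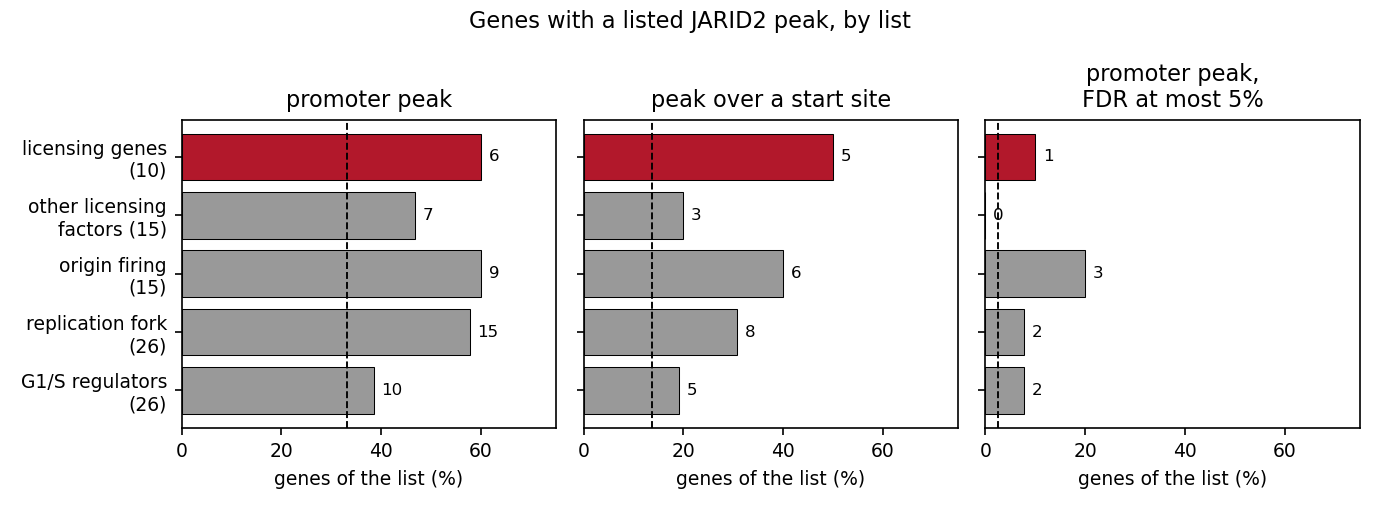
Share of genes (horizontal, percent) with a promoter peak, with a peak over a start site and with a promoter peak at an FDR of at most 5%, for the 10 licensing genes (red) and 4 other lists (grey); the number beside each bar counts genes and the dashed line is the share of all 20037 protein-coding genes. The licensing genes had 6, 5 and 1 such genes.

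The other genes of the pathway, 82 in 4 lists, had promoter peaks at 41 genes (50%, against 33.1% of protein-coding genes). Other licensing factors had them at 7 of 15 genes (46.7%, interval 21.3 to 73.4). At an FDR of at most 5% the count was 0, where 2.47% of protein-coding genes had one. ORC6 (7.95, 12 tags), ORC4 (6.47, 14 tags), ORC2 (6.06, 13 tags) and ORC5 (5.72, 12 tags), which encode the other subunits of the origin recognition complex with ORC3, had few tags. MCM9, a gene of an MCM-like helicase in recombination repair, had 7.06 with 14 tags. The FDRs of these 5 peaks ran from 31.47% to 44.1%. Of these 5 genes, ORC5 had a peak over a start. The other 2 genes of the list with a promoter peak, named here after their values were seen, had more tags and a lower fold enrichment, over their starts. MCIDAS, a relative of geminin, had 32 tags at 4.71-fold, and SKP2, a ubiquitin ligase subunit that acts on CDT1, had 25 tags at 4.56-fold. 

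Origin firing is the step that turns loaded MCM rings into active helicases. Its genes had promoter peaks at 9 of 15 (60.0%, interval 32.3 to 83.7, against 33.1% of protein-coding genes). CDC7, the kinase that phosphorylates the MCM ring, had a peak over its start of 53 tags at 8.21-fold with an FDR of 0.52%. MCM10, a replication initiation factor outside the ring, had 56 tags at 6.86-fold with an FDR of 0.31%. Both peaks had more tags and a higher fold enrichment than the MCM7 peak, and MCM4 alone among the licensing genes exceeded them in fold enrichment. TICRR had 8.77 and GINS3 7.28, at FDRs of 37.18% and 43.65%. TOPBP1, a checkpoint and helicase-assembly factor, had its highest promoter peak at 24.01 with 44 tags, 987 bp downstream of a listed start. It had 19 peaks, of which 11 were classed as promoter, 7 as exon and 0 as intron, and its highest peak of all was on an exon, at 49.03 with 88 tags.

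Replication fork genes had promoter peaks at 15 of 26 (57.7%, interval 36.9 to 76.6), and G1/S regulators at 10 of 26 (38.5%, interval 20.2 to 59.4). The share of all protein-coding genes was 33.1%, which is near that of the G1/S regulators. The lists too were chosen with earlier results of these data known, so their intervals test nothing. At the fork, POLE4, a small subunit of DNA polymerase epsilon, had 79 tags at 19.53-fold, and RFC1, the large subunit of the clamp loader, 56 tags at 18.19-fold, both with an FDR listed as 0. RFC5 had 8.83, CLSPN 6.36 and TIMELESS 6.31, at FDRs of 23.86%, 12.83% and 42.71%. Among the G1/S regulators, the repressor gene E2F6 had 83 tags at 13.99-fold (FDR 0), and RBL1, which encodes the retinoblastoma-related protein p107, had 71 tags at 6.61-fold (FDR 0.27%). CCND2 had 10.5 (FDR 15.45%), CDK6 7.04 (37.28%) and LIN54 5.46 (42.36%). Over the 4 lists, 7 of 82 genes (8.54%) had a promoter peak at an FDR of at most 5%, against 2.47% of protein-coding genes. The E2F6 and MCM4 peaks were alike in fold enrichment, at 13.99 and 13.82, but the E2F6 peak held more tags, 83 against 40. By each gene's highest promoter peak, the median fold enrichment was 6.06 for other licensing factors, 6.86 for firing, 6.18 for the fork and 5.39 for G1/S regulators, against 4.54 for the licensing genes.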

How the data were processed

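JARID2 ChIP-seq was made from MDA-MB-231 cells. Per the submitters' processing notes, the tools were ChIPseeker, MACS2, MACS and Bowtie 0.12.8, on hg19. The MACS version, its thresholds and the use of the input were not given in the sources used here. Per the file headers, the authors deposited per peak a tag count (whole numbers, not normalised), a fold enrichment (a linear ratio to background), an FDR in percent, and a score with an unreadable header, read here as 10 times −log10 p from its place and its minimum of 30. The list holds only peaks, so the depth is unknown. The peaks held 1000395 tags.

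Peaks were given to genes by the deposited symbol of the nearest transcript. Distances and summits (peak start plus summit offset) were recomputed from the coordinates with Python 3.11.15 and pandas 2.3.3, after checking on simulated peaks. Of 26257 symbols, 11300 matched a RefSeq (GRCh38.p14) protein-coding gene by symbol or a synonym of 1 gene. The table supplied names and gene order. With 1 ChIP library no test was made. Shares stand beside those of all protein-coding genes, and percentiles are descriptions.

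The members and lists were chosen with earlier results of these data known. Genes named are every member, their neighbours, and in each list the 5 with the largest promoter fold enrichment and those with an FDR of at most 5%. Alternatives were a reach of 1 kb, FDR, score and fold limits, assignment by position and merging of peaks under 1 kb apart.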

Additional observations from a re-analysis of the deposited data

How the results depend on the processing

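No paired analysis was possible because each group had 1 library, and no replicate could be left out. The count of 6 licensing genes with a promoter peak was the same within 1 kb, within 3 kb by the nearest edge and by position, and was 5 for peaks over a start. It became 1 gene at an FDR of at most 5% or 20%, in the top 25% by fold enrichment and at a −log10 p of 5 or more, as did the 6 genes with any peak and the 7 peaks given to the genes. Counting the intronic peak beside ORC1 for that gene gave 7 genes with any peak, 2 of them with one in the top 25% by fold. The search by position covered only genes with a listed transcript, so not MCM2, ORC1, CDT1 or GMNN. Merging peaks under 1 kb apart left 7 peaks. For the 82 related genes the count of 41 became 7 at an FDR of at most 5%, 11 at 20%, 13 in the top 25% and 15 at a −log10 p of 5 or more, and it was 31 within 1 kb and 43 by the nearest edge. The median percentile of the 6 licensing genes was 9.68 by fold enrichment, 11.6 within 1 kb, 85.5 by tags and 68.1 by tags per kb, so the ranking depends on the measure. The nearest edge, the overlap with a start and the ORC1 count were chosen after the data were examined. Without a library depth, the list gives no limit for genes without a peak.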
